A study of Mus musculus with 2 samples.

Results

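The members are 10 genes of antibody-secreting cells, chosen by symbol from the whole-number rows of the table, and all 10 had a row among the 34259 genes of the whole series. Of these, 6 encode antibody chains or the chain that joins them (Igkc, Ighg1, Ighg2b, Ighm, Igha and Jchain) and 4 are secretory plasma cell genes (Mzb1, Derl3, Fkbp11 and Sdc1). RNA was measured in bulk in 2 libraries from 4T1 tumours, which grow from a mouse mammary carcinoma line. The treated tumour (batch 1) was collected after 3 injections of an autophagy-related protein degrader, and the other tumour (batch 2) is labelled only as control. Library construction started from 1.5 µg of total RNA. The sources used here do not give the compound, its target or dose, what the control animal received, or the hosts' strain and age. With 1 library per group, and a batch of its own for each, treatment, batch and single tumour cannot be told apart. The members were chosen from these very counts, so every value is a description of 2 libraries, without a test.

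The treated library held 3824323 and the control library 2252214 counts in whole-number rows, with 17987 and 16634 genes detected. Counts are given beside CPM (counts per 1000000), after TMM (trimmed mean of M values) scaling of the totals. A single count was worth 0.259 CPM for the treated tumour and 0.449 CPM for the control. Folds are ratios of CPM with exact conditional binomial 95% intervals, which cover counting error only and not the variation between tumours. A gene was called lower or higher when it differed at least 2-fold on the log2(CPM + 1) scale and its mean over both libraries was 10 CPM or more. Among the 8865 genes with that mean, the median log2 ratio was 0.03, 2.50% were lower and 4.23% were higher in the treated library. The epithelial markers Krt8 and Krt18, of the kind a mammary carcinoma carries, had 7729 and 5479 treated and 4116 and 2803 control counts.

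An antibody is built of heavy and light chains, each made of a variable part, assembled from gene segments in every B cell, and a constant part that sets the class. B cells carry antibody on their surface, and plasma cells, which arise from them, devote most of their secretory apparatus to releasing it. The J chain links secreted antibodies of the IgM and IgA classes into polymers, and the endoplasmic reticulum (ER) of plasma cells is enlarged to fold and export the chains. In bulk tissue, fewer cells of a type and less RNA per cell cannot be told apart.

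The antibody genes were nearly missing from the treated library. Igkc, the constant part of the kappa light chain (ENSMUSG00000076609, mm10 chr6:70726435-70726966, plus strand), had 5 treated and 126 control counts, or 1.29 against 56.5 CPM. It was 43.7-fold lower in the treated tumour (18.2 to 137). Ighg1, the constant part of IgG1 (ENSMUSG00000076614, chr12:113325240-113330523, minus strand), had 4 treated and 104 control counts, or 1.03 against 46.7 CPM, and was 45.1-fold lower (17.1 to 169). These 2 genes had the lowest log2 ratios of all 8865 genes. Members were chosen from these counts, and both genes reached the 10 CPM mean only through the control library, so this rank is a description. Jchain (ENSMUSG00000067149, chr5:88519809-88527891, minus strand) had 6 treated and 102 control counts, or 1.55 against 45.8 CPM, and was 29.5-fold lower (13.1 to 82.2). The treated library was the deeper of the pair, so the low counts stood beside a larger total. In the annotation Igkc lies within a long noncoding RNA gene on the same strand, Gm30211, and Mzb1 also overlaps another gene on its strand, so the assignment of reads to both is uncertain.

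Ighm, the constant part of IgM and of the antibody that naive B cells carry on their surface (ENSMUSG00000076617, chr12:113418558-113422730, minus strand), had 10 treated and 38 control counts. Its level was 2.59 against 17.1 CPM, 6.59-fold lower in the treated tumour (3.22 to 14.8). Ighg2b, the constant part of IgG2b (ENSMUSG00000076613, chr12:113302965-113307933, minus strand), had 0 treated and 5 control counts. Set against a floor of 3 counts per library, this was at least 2.89-fold lower. Such bounds take the control count as it stands, without its own counting error, and the exact interval of the ratio reached up to 0.629. Igha, the constant part of IgA (chr12:113254830-113260236, minus strand), had 2 treated and 1 control count, which at this depth shows no level in either tumour and allows no fold.

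Of the 6 antibody genes, 3 reached the mean of 10 CPM and all 3 were lower, against 2.50% of all measured genes, but each reached the minimum only through the control library. The nearest members on either side of that minimum were Jchain, with a mean of 23.7 CPM, and Ighm, with 9.82 CPM. The median log2 ratio of the 3 was -4.55, and that of all 6 was -3.26.

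The secretory plasma cell genes did not share one pattern. Mzb1, an ER protein that helps antibody assembly in B and plasma cells (chromosome 18, minus strand), had 0 treated and 4 control counts. It was at least 2.31-fold lower against the floor, with an exact interval of the ratio up to 0.873. Derl3, a derlin that passes misfolded proteins out of the ER (ENSMUSG00000009092, chr10:75893413-75895941, plus strand), had 0 treated and 1 control count, too few for a fold. These low counts are on the side of the antibody genes, but both genes were near the floor in both tumours. Fkbp11, an ER prolyl isomerase abundant in secretory cells (ENSMUSG00000003355, chr15:98724366-98728198, minus strand), had 168 treated and 55 control counts. At 43.5 against 24.7 CPM it was 1.76-fold higher in the treated tumour (1.29 to 2.43), under the 2-fold call. Sdc1, or CD138, a heparan sulfate proteoglycan used as a plasma cell marker and also abundant on epithelial cells (ENSMUSG00000020592, chr12:8771323-8793715, plus strand), had 1179 treated and 605 control counts. At 305 against 271 CPM its ratio was 1.12 (1.02 to 1.24). None of the 4 passed the 2-fold call in either direction, and 2 of them, Fkbp11 and Sdc1, reached the minimum.

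**Figure D1:**
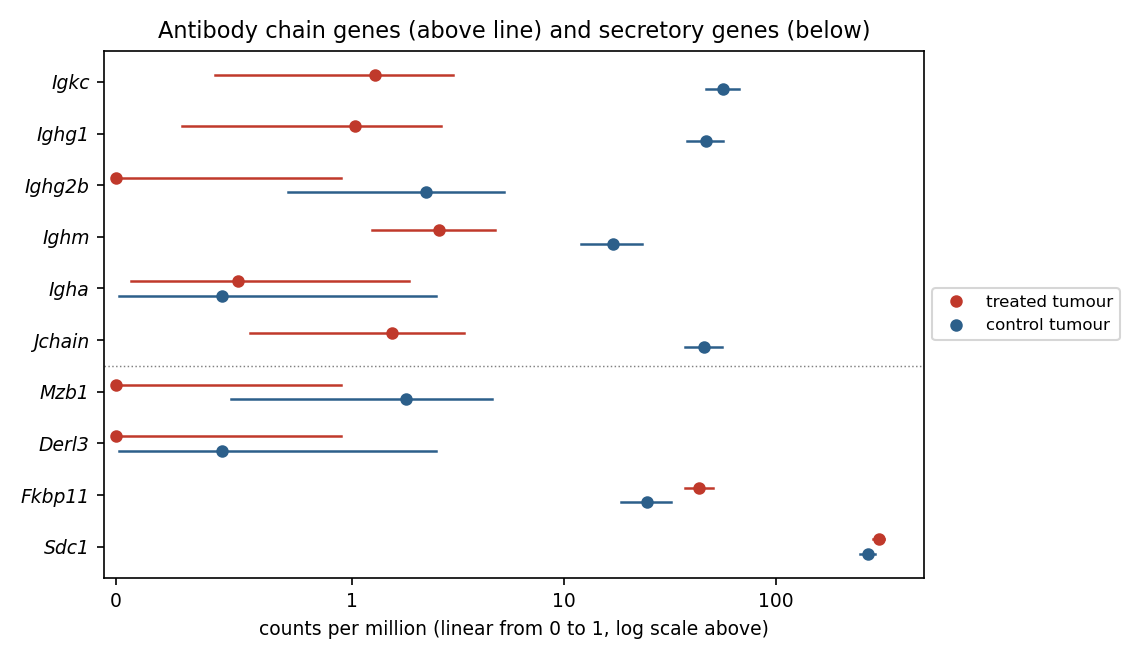
Levels of the 10 members in CPM in the treated (red) and control (blue) tumour, with 1 library each; lines are exact Poisson 95% intervals of the counts, and the axis is linear from 0 to 1 and logarithmic above. The antibody chain genes other than Igha lie to the left in the treated tumour (Igkc at 1.29 against 56.5 CPM), whereas Fkbp11 (43.5 against 24.7) and Sdc1 (305 against 271) do not.

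Summed over the 6 antibody genes, the libraries held 27 treated and 376 control counts, a 24.2-fold lower level in the treated tumour (16.3 to 37.1). The 4 secretory genes together held 1347 and 665 counts, a ratio of 1.17 (1.06 to 1.28), and Sdc1 supplied most of both sums. The intervals of these sums cover counting error only. The genes were chosen with these counts known, so the difference between the sums is a description. The median log2 ratio of the 2 secretory genes that reached the minimum was 0.48, against 0.03 over all measured genes.

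**Figure D2:**
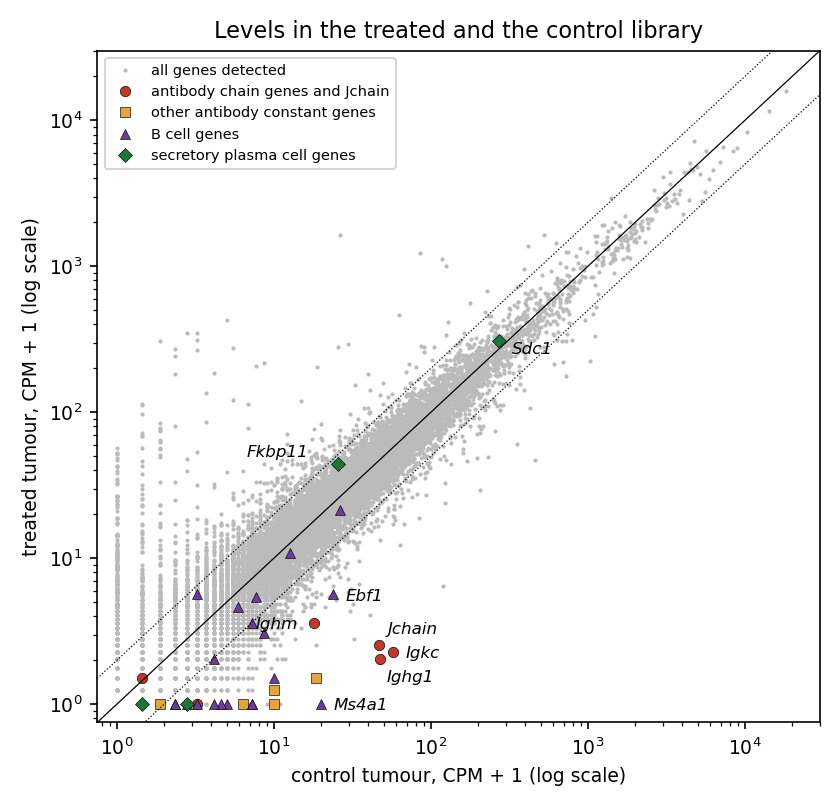
Each point is 1 gene, with its level in the control tumour on the horizontal and in the treated tumour on the vertical axis, as CPM + 1 on log scales; the solid line marks equal levels and the dotted lines a 2-fold difference. Igkc, Ighg1 and Jchain stand apart at the lower right (log2 ratios of -4.65, -4.55 and -4.20), while Sdc1 and Fkbp11 lie between the dotted lines.

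The other constant genes were also low in the treated tumour. Iglc2, a lambda light chain constant gene, had 2 treated and 39 control counts, a ratio of 0.0296 (0.00346 to 0.114). Iglc3 had 1 and 20 counts, a ratio of 0.0288 (0.000696 to 0.180). Iglc1 had 0 and 12, at least 6.94-fold lower against the floor, with an exact interval of the ratio up to 0.208. Ighd, the constant part of IgD on naive B cells, had 0 treated and 20 control counts. It was at least 11.6-fold lower against the floor, with an exact interval of the ratio up to 0.117. Ighg3 had 0 and 2 counts, and Ighg2c, Ighe and Iglc4 had none in either library. Ighg2a had no row. Some mouse strains carry Ighg2a in place of the Ighg2c of the reference genome, and where reads of that class were counted was not tested. All 13 constant genes with a row held 24 treated and 367 control counts, or 0.000628% (0.000402% to 0.000934%, exact binomial interval) against 0.0163% (0.0147% to 0.0181%) of the libraries. Together they were 26.5-fold lower in the treated tumour (17.5 to 41.9). Without Igkc the remaining constant genes were 22.0-fold lower (13.8 to 37.2).

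Both light chain types and the heavy chains were low in the treated tumour. The heavy chain constant genes held 16 and 170 counts, a ratio of 0.0543 (0.0303 to 0.0907), and the lambda genes 3 and 71, 41.0-fold lower (13.5 to 204). The sources used here do not say how reads were divided among near-identical genes. The coding sequences of Iglc2 and Iglc3 were 96.2% identical in the mm10 annotation (GENCODE M21), so the split between them is uncertain and their sum is the safer value. Ighg1 and Ighg2b shared 74.7%. The first 90 coding bases of each pair, and of Igkc, are shown to let this difference in similarity be seen; capitals mark bases that differ from the partner gene when the 2 are laid side by side, 5′ to 3′ along the gene's strand.
Igkc, chr6:70726435-70726524, plus strand, with no partner: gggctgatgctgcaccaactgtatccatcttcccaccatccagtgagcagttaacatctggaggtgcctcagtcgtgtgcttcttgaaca
Iglc2, chr16:19198764-19198853, minus strand: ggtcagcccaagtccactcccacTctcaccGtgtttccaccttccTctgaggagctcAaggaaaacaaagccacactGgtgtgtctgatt
Iglc3, chr16:19065592-19065681, minus strand: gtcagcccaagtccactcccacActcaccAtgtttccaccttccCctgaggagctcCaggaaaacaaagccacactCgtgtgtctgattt
Ighg1, chr12:113330434-113330523, minus strand: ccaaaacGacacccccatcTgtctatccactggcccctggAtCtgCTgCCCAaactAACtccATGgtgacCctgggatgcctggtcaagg
Ighg2b, chr12:113307844-113307933, minus strand: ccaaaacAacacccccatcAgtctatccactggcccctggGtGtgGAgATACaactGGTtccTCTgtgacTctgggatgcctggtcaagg
Within these stretches Iglc2 and Iglc3 differ at 5 bases and Ighg1 and Ighg2b at 17.

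The variable, diversity and joining segments, which are joined anew in each B cell, were sparse. Of 377 segment rows, 7 were detected in treated and 25 in control RNA, of which 2 were shared. Their sums were 9 and 40 counts, 7.71-fold lower in the treated tumour (3.68 to 18.1). The 5 most abundant were Igkv19-93 with 8, Iglv1 with 5, Igkv8-27 with 3 and Igkv6-15 and Igkv6-32 with 2 control counts each, and all 5 had none in the treated library. No segment had more than 8 control or 3 treated counts, so the spread of the control antibody over segments was not resolved at this depth. The share of the segment counts that lay in the treated library was 18.4%, whereas that library made up 63.4% of the scaled depth.

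Several genes of the B cell list were low or at 0 in the treated tumour, while others, some of which other leukocytes share, were not. Ms4a1, which encodes CD20 on the B cell surface, had 0 treated and 42 control counts. It was at least 24.3-fold lower against the floor, with an exact interval of the ratio up to 0.0529. Cd79a and Cd79b, the signalling chains of the B cell receptor, had 0 and 2 treated against 14 and 20 control counts. Bank1, an adaptor of B cell receptor signalling, had 0 and 14 counts. Pax5, the transcription factor that keeps B cell identity, had 0 and 9. Cr2, Fcer2a and Blk, further surface receptors and a kinase of B cells, had 0 treated counts and between 4 and 8 control counts. Ebf1, a B cell transcription factor that stromal and fat cells also express, had 18 and 51 counts and was 4.91-fold lower (2.82 to 8.94). Fcrla had 79 and 57 counts, a ratio of 0.799 (0.561 to 1.14), and Cd72 38 and 26, a ratio of 0.843 (0.499 to 1.45). Btk and Blnk, which macrophages also express, had ratios of 0.734 (0.309 to 1.79) and 0.653 (0.307 to 1.41). Cd37, a tetraspanin of leukocytes, had 18 treated and 5 control counts, a ratio of 2.08 (0.743 to 7.15).

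Of the 22 B cell genes, 10 had a count in treated RNA and 20 had one in control RNA, and their summed counts were 208 and 332, 2.77-fold lower (2.32 to 3.31). Only 3 reached 10 CPM, with a median log2 ratio of -0.31, of which 1, Ebf1, was called lower, against 2.50% of all measured genes. A second description, chosen after the values were seen, used genes with at least 4 control counts. Among all 12713 such genes, 56 had no count in the treated library, which is 0.440%. Among the B cell list 8 of 18 had none, and among the antibody constant genes 3 of 8. The rule selects on the control count alone, and these shares were not matched for abundance. A gene with few control counts reaches 0 more readily, so the shares are not like for like. Antibody segments, antibody constant genes, B cell genes, plasma cell regulators and members together made up 16 of the 56. With at least 10 control counts, 8 of 10802 genes, or 0.0741%, had none in the treated library. Of these 8, 6 were Ms4a1, Ighd, Cd79a, Bank1, Pou2af1 and Iglc1, and the other two were Slc1a3 and Ces1d.

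**Figure D3:**
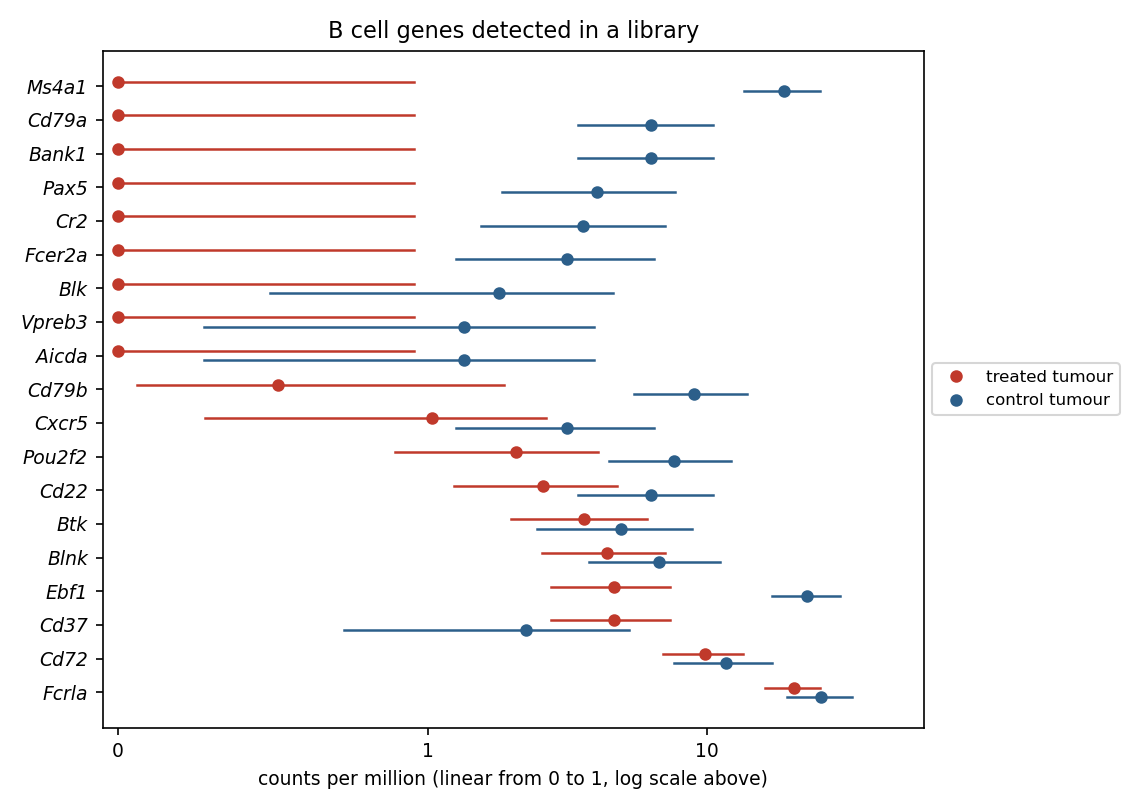
Levels of 19 B cell genes detected in either library, in CPM in the treated (red) and control (blue) tumour; lines are exact Poisson 95% intervals and the axis is linear from 0 to 1 and logarithmic above. Of the 19, 9 had no treated count, with Ms4a1 at 18.8 CPM in the control, whereas the intervals of Fcrla, Cd72, Btk and Blnk overlap between the tumours.

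Regulators of the plasma cell state were mixed. Pou2af1, a coactivator of antibody gene transcription in B cells, had 0 treated and 13 control counts. It was at least 7.52-fold lower against the floor, with an exact interval of the ratio up to 0.189. Tnfrsf13c, the BAFF receptor of B cells, had 0 and 8, at least 4.62-fold lower, with an exact interval up to 0.338. Tnfrsf17, or BCMA, the survival receptor that defines mature plasma cells, had no count in either library, which allows up to 0.776 CPM for the treated and 1.35 CPM for the control tumour. Irf4 had 3 and 4 counts and Slamf7 1 and 1. Prdm1, or BLIMP-1, which drives plasma cell maturation and is made by other cells too, had 46 and 43 counts, 1.62-fold lower (1.04 to 2.51). Cd38, a surface enzyme of plasma cells and of myeloid cells, had 32 and 42 counts, 2.28-fold lower (1.40 to 3.73). It was the 1 of 4 measured genes of the 20 on the list to be called, where 2.50% of all measured genes were lower. It was not called with a pseudocount of 5 CPM. Xbp1, the ER stress factor that plasma cells and other secretory cells need, had 802 and 365 counts, a ratio of 1.27 (1.12 to 1.44). Ell2, an elongation factor used for secreted antibody RNA, had 229 and 135, a ratio of 0.978 (0.787 to 1.22).

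Genes of the secretory apparatus that all cells use did not follow the antibody genes. Of 42 genes for ER folding, translocation and export, 41 reached the minimum. Of these, none was called lower and 1 was called higher, against 2.50% and 4.23% of all measured genes. The median log2 ratio of the 41 was 0.15, against 0.03 over all measured genes. Hspa5, the ER chaperone BiP, which was first described as the protein that binds free heavy chains, had 4869 and 1668 counts and was 1.68-fold higher (1.59 to 1.78). Hsp90b1, the ER chaperone GRP94, had a ratio of 0.874 (0.833 to 0.917). Sec11c, a subunit of the signal peptidase, was 2.01-fold higher (1.78 to 2.28), a call that was lost with median-of-ratios scaling, with totals from which mitochondrial, haemoglobin and ribosomal protein genes were left out, and with a pseudocount of 5 CPM. Edem2, which marks misfolded glycoproteins for removal, was 2.05-fold higher (1.35 to 3.21) without passing the call after the pseudocount.

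The close relatives of Derl3, Fkbp11 and Sdc1 were measured in both tumours. Of 15 such genes, 14 reached the minimum, with a median log2 ratio of -0.15. None was called in either direction, where 2.50% of all measured genes were lower and 4.23% higher. The broadly used derlins Derl1 and Derl2 had ratios of 1.27 (1.09 to 1.49) and 0.773 (0.639 to 0.936). The most abundant of the list by mean CPM were Fkbp3, with a ratio of 0.915 (0.844 to 0.991), and Fkbp1a, with 1.29 (1.15 to 1.44). The ER isomerase Fkbp2 had 426 and 122 counts, a ratio of 2.01 (1.64 to 2.48), without passing the call after the pseudocount. With plain library totals or a pseudocount of 0.5 CPM, 1 gene of the list was called higher. Fkbp10, which assists collagen folding, was 1.91-fold lower (1.28 to 2.86). Sdc2, Sdc3 and Sdc4 had ratios of 0.855, 0.859 and 0.988.

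Because Sdc1 is also an epithelial gene, epithelial markers are given beside it. All 9 simple epithelial markers, of which Krt8 and Krt18 are the most abundant, reached the minimum and none was called, with a summed ratio of 1.12 (1.09 to 1.15) and a median log2 ratio of 0.17. Krt19 and Cldn3 had the largest ratios among them, 1.58 and 1.60. The ratio of Sdc1, 1.12, equalled that of their sum at this rounding. Of 11 epidermal markers with a row, all 9 that reached the minimum were called higher, against 4.23% of all measured genes. All of these except Krt14 and Krt10 reached the minimum only through the treated library, so the call of those genes follows from that filter. Krt14 had 3856 and 275 counts, and Krtdap, a gene of differentiating keratinocytes, 1356 and 5. Krt5 had 1038 and 3. The summed level of the 11 epidermal markers was 2215 against 153 CPM. The part of either kind of epithelium in the level of Sdc1 was not tested.

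Promoters of the members are shown because the antibody and ER genes differ in the control elements they are known to use. The octamer of antibody gene promoters (ATGCAAAT), the unfolded protein response element (TGACGTGG) and the ER stress element (CCAAT and CCACG with 9 bases of any kind between them) were searched on both strands, from 250 bases before to 50 after the start, in 32851 mouse promoters of RefSeq (GRCm38.p6). They occurred in 1.74%, 0.676% and 0.119% of these promoters. Promoters were used for 4 members, Jchain, Derl3, Fkbp11 and Sdc1, with 2 for Fkbp11. Of these, that of Derl3 held a match, to the ER stress element, in capitals here on the opposite strand and beginning 156 bases before the start. Among the 42 ER genes, 9 of the 35 with a promoter held it, Hspa5 among them. The promoter of Jchain held none of the 3 motifs within this window.
Jchain, chr5:88527848-88528147, minus strand: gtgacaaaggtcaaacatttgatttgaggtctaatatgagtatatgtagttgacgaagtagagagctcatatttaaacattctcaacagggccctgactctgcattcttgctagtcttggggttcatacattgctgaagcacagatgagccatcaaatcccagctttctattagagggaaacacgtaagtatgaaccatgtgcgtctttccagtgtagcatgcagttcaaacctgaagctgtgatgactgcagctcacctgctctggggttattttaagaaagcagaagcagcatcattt
Derl3, chr10:75893148-75893447, plus strand: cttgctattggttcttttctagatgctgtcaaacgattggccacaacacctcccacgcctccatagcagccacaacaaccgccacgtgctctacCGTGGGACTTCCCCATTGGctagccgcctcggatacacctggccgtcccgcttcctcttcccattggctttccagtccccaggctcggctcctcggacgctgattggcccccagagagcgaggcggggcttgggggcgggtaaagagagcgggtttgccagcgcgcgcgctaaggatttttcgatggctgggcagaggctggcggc
A match is a description of the letters and shows neither binding nor use of the element.

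All 7 measured genes of the 9 for Fc receptors and antibody transport had a log2 ratio above 0. Their median was 0.74, against 0.03 over all measured genes. Of the 7, 2 were called higher, against 4.23% of all measured genes. Fcer1g, the shared signalling chain of Fc receptors on myeloid cells, had 649 and 183 counts and was 2.04-fold higher (1.73 to 2.42). Fcgrt, the receptor that protects IgG from breakdown, had 125 and 34 and was 2.12-fold higher (1.44 to 3.20). Fcgr2b, the inhibitory IgG receptor, had 391 and 134 counts and was 1.68-fold higher (1.38 to 2.06). With a pseudocount of 5 CPM neither Fcer1g nor Fcgrt was called. Of the 11 plasma cell survival and recruitment signals, 4 reached the minimum and none was called. Tnfsf13b, which encodes the survival factor BAFF, had 118 and 97 counts, 1.43-fold lower (1.08 to 1.88). Cxcl12, which holds plasma cells in bone marrow, was 2.00-fold higher (1.28 to 3.22) without passing the call. Il6 and Il10 had ratios of 1.60 (0.968 to 2.73) and 1.12 (0.844 to 1.50).

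**Figure D4:**
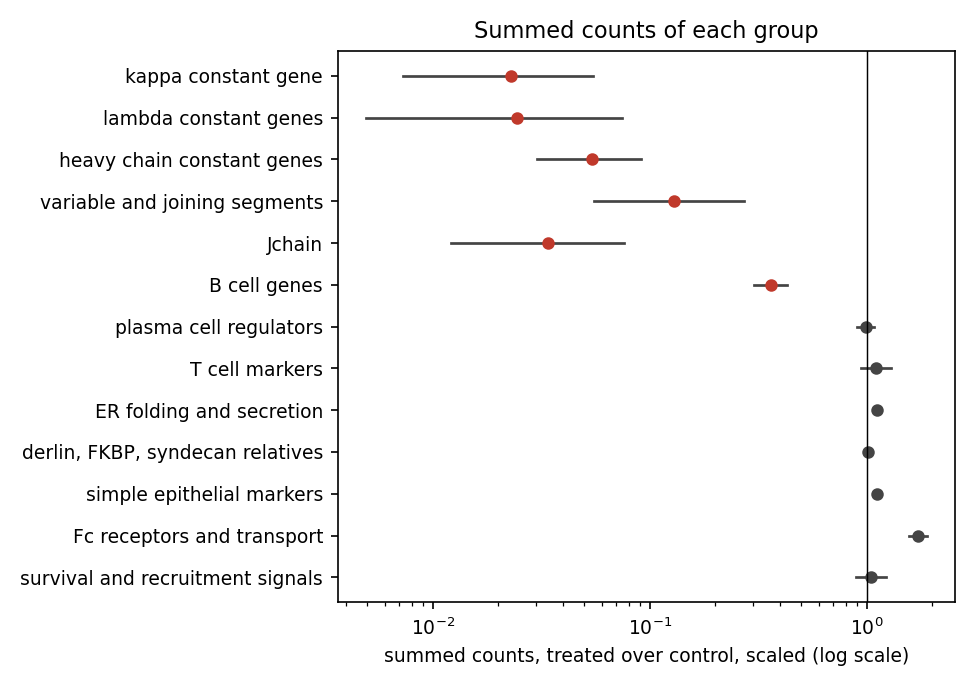
Ratio of the summed counts in the treated over the control tumour for Jchain and for 12 groups of genes, scaled for depth, on a log axis; dots are ratios, lines exact conditional binomial 95% intervals that cover counting error only, and red marks antibody and B cell groups. The antibody groups shown lie between 0.0229 and 0.130 and B cell genes at 0.361, while the other groups shown lie between 0.990 and 1.72. Xbp1 and Ell2 supplied most of both sums of the plasma cell regulators (0.990), so that ratio says little about the rest of that list. With no minimum, 5 genes of that list were lower and 0 higher by the 2-fold call.

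Markers of other lymphoid cells are given beside the antibody genes. Of the 15 T cell markers all were detected in the treated library, and their sums of 462 and 242 counts gave a ratio of 1.10 (0.940 to 1.29). Thy1 and Cd3g, the 2 that reached the minimum, had ratios of 0.991 (0.785 to 1.26) and 1.03 (0.613 to 1.78). Plasmacytoid dendritic cells also use Mzb1, and of their defining markers Siglech had 1 treated and 0 control counts and Cd300c none. The list's abundant genes Bst2 and Tcf4, which many cells express, had ratios of 0.916 (0.863 to 0.974) and 0.624 (0.555 to 0.702), and Ly6d, which keratinocytes also express, was 26.8-fold higher (14.4 to 56.3).

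With 2 libraries the pattern of a gene is a single ratio. Apart from members and antibody segments, the 5 measured genes whose log2 ratio was nearest to that of Jchain, at -4.20, were Ibsp at -4.21, Thrsp at -3.53, Hsd11b2 at -3.32, Ccn2 at -3.28 and Ptn at -2.81. These distances run from 0.01 to 1.38 on the log2 scale, and the ratio of Ibsp, a matrix protein of mineralised tissue, was the closest.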

How the data were processed

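The table the authors deposited gives gene-level counts under Ensembl identifiers and symbols. The genome build is mm10, per the submitters' processing notes. The aligner, counter, strand handling and any use of molecular identifiers were not given in the sources used here. Values were whole numbers in 34259 rows. The block of 31 autophagy rows at the top of the table, 30 with a value that is not whole, was left out. Columns were tied to samples through the second sheet of each sample, which holds 1 column, and 7 further columns of values were not used. The second sheets leave out 40 rows and hold all 10 members at the same counts.

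Scaling by the trimmed mean of M values was written out in Python 3.11.15 (numpy 2.4.6, pandas 2.3.3, scipy 1.17.1), trimming 30% of the log ratios and 5% of the abundances from either end, which gave factors of 1.01 and 0.989, and it was tested on simulated data. CPM are counts divided by the scaled totals, per 1000000. A pseudocount of 1 CPM was used for log2 ratios only and understates the differences of low genes. For the bounds given as at least a fold, a count of 0 was set at a floor of 3 counts per library. Log2 ratios, medians and calls used the count of 0 itself with the pseudocount. Intervals are at the 95% level and, like the floors, cover counting error only, since reads may not be independent molecules. The members and the gene lists were chosen with earlier results of these data known. Named genes were the members, the other constant genes, the 2 most abundant and the 2 most different measured genes of each list, the 5 most abundant segments and the 5 genes nearest to Jchain; further genes of the B cell, regulator and other lists were named after their values were seen. Positions and constant gene sequences are from GENCODE M21 and promoters from RefSeq. The values of 1 B cell gene are not reported here, though it is part of the counts over its list.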

Additional observations from a re-analysis of the deposited data

How the results depend on the processing

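No paired analysis was possible because each group has 1 library, and for the same reason no replicate could be left out. Under 3 other scalings, 2 other pseudocounts, the second sheet and with the autophagy rows kept, the log2 ratios ran from -4.99 to -3.29 for Igkc, -4.94 to -3.10 for Ighg1, -4.49 to -2.95 for Jchain, -2.51 to -1.54 for Ighm, 0.71 to 0.82 for Fkbp11 and 0.14 to 0.20 for Sdc1. The values nearest to 0 of the antibody genes came with a pseudocount of 5 CPM and lay outside the counting intervals of their ratios. None of the genes listed above changed sign, but some list medians did. With no minimum the secretory median went from 0.48 to -0.18, and that of the plasmacytoid markers from -0.37 to 0.07. The regulator median went from -0.34 to 0.15 at a minimum of 50 CPM. The T cell median, 0.01 as reported, fell below 0 under some settings. With no minimum or one of 1 CPM, 5 antibody genes were lower instead of 3, and 4 with totals that left out mitochondrial, haemoglobin and ribosomal protein genes. With no minimum 1 secretory gene, Mzb1, was lower and the secretory median was -0.18; it was 0.17 at 50 CPM, where no antibody gene was left, and with a 1.5-fold threshold 1 secretory gene, Fkbp11, was higher. B cell genes called lower numbered 1 as reported, 15 with no minimum (median -1.49), 12 at 1 CPM (median -1.70) and 2 with those totals (median -1.24), against a median of -0.31 as reported and -1.18 with the autophagy rows kept. These alternatives change which genes reach the minimum. B cell and antibody genes at 0 in the treated library numbered 11 of 26 with at least 4 control counts and 5 of 18 with at least 10, a rule chosen after seeing the data. In the second sheet, which lacks 40 rows and gives 3 genes other control counts (Dsc3 89 instead of 0), 6 epidermal markers instead of 9 were higher, with a median of 3.62 instead of 5.57.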
